A study of Mus musculus with 4 samples.

Results

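Expression of 6 inhibitors of cyclin-dependent kinases (Cdks) and of p53 with 3 of its target genes was examined in neural progenitor cells (NPCs) cultured on a soft or a stiff matrix, with and without knockdown of Srf. The genes were chosen by symbol (Cdkn1a, Cdkn1b, Cdkn2a, Cdkn2b, Cdkn2c, Cdkn2d, Trp53, Mdm2, Ccng1 and Bax). All 10 were found among the 21862 gene symbols that each library listed once, and all 10 had an FPKM above 2 in every library, as 10489 genes did. FPKM divides the reads of a gene by transcript length and library depth, so that levels can be compared between genes.

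The cells were N31 NPCs, a mouse line differentiated in vitro from iPSCs, and every library carries its genetic background, with a blasticidin resistance gene at Oct4, a CAG-driven rtTA transgene and doxycycline-dependent transgenes for Oct4, Klf4, c-Myc and Sox2. The control groups were N31 NPCs on a matrix of 0.5 kPa and on one of 12 kPa, and the shSrf groups were N31 NPCs expressing the short hairpin RNA shSrf#1 at the same 2 stiffnesses. All were kept on collagen-coated matrices in NPC medium lacking EGF and bFGF. The hairpins of the study were delivered by retrovirus with puromycin selection, and the methods name the control cells only as N31 cells, so an effect of Srf loss and one of the vector or its selection cannot be told apart. Only 1 hairpin was sequenced, and whether its cells were a clone or a pool is not stated. Each of the 4 groups was 1 library. A difference between them therefore has no replicate check, and no p-value is given. Where an SE follows a log2 ratio, it covers counting of reads only, from reads estimated with a depth of 24100000 to 62400000 reads per library. The shSrf libraries were the deeper ones, at 1.55 and 2.14 times the control library at 0.5 kPa.

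Srf itself stood at 34.4 and 35.6 FPKM in control NPCs at 0.5 and 12 kPa and at 16.2 and 17.4 in shSrf NPCs. Of 10 neural progenitor markers, 5 were above an FPKM of 2 in all libraries, Sox1 and Hes5 were listed at 0 in all, and Fabp7 stayed below 2. Of 8 mesenchymal markers 6 were above 2 in all libraries, with a summed FPKM from 2523 to 2738. Most of that sum came from Col3a1 (1730 and 1584 in control, 1897 and 1908 in shSrf NPCs), and single markers differed in both directions. Col1a2 was lower in shSrf NPCs (570 and 555 against 338 and 388), as was Thy1. Col1a1 was higher (96 and 95 against 123 and 132), as were Col3a1, Twist1, Pdgfrb and Lum, and the groups overlapped for Prrx1. The summed FPKM of 5 neuron markers was 52.3 and 56.4 in control NPCs and 120 and 115 in shSrf NPCs (3 of the 5 above 2 in all libraries, Rbfox3 listed at 0). Stmn2 and Map2 carried that difference, and Tubb3 was at 3.34 and 2.63 in control and 3.39 and 3.93 in shSrf NPCs. The summed FPKM of the neural progenitor markers was 1784 and 1564 in control NPCs and 2437 and 2456 in shSrf NPCs, most of it from Vim. The other 9 progenitor markers summed to 87.5 and 82.6 in control and to 56.4 and 59.9 in shSrf NPCs. Among them Nes was lower in shSrf NPCs (51.6 and 36.1 against 16.4 and 15.5), as was Slc1a3 (27.7 and 36.7 against 9.99 and 13.2), whereas Sox2 was higher (4.29 and 5.49 against 19.1 and 20.4). These cells also carry a Sox2 transgene, and the deposited values do not separate its reads from those of the endogenous gene. Nes and Slc1a3 carried the lower sum of the 9 progenitor markers, whereas others of the 9 besides Sox2 were also higher in shSrf NPCs. The markers thus differed with the knockdown in both directions, and their part in the differences between shSrf and control NPCs described here was not tested. Astrocyte markers (1 of 4 above 2 in all libraries) summed to between 6.36 and 9.34, and pluripotency markers (0 of 4) to between 3.03 and 4.35, with Dppa5a listed at 0.

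Cdks drive the cell cycle when bound to cyclins, and they are held back by inhibitors of 2 families. The Cip/Kip proteins p21 (Cdkn1a) and p27 (Cdkn1b) bind cyclin-Cdk complexes, whereas the Ink4 proteins p16 (Cdkn2a), p15 (Cdkn2b), p18 (Cdkn2c) and p19 (Cdkn2d) bind Cdk4 and Cdk6 and so keep the retinoblastoma protein active. Cdkn2a also encodes Arf from a separate first exon, in another reading frame, and Arf blocks Mdm2, the ubiquitin ligase that degrades p53. p53 (Trp53) in turn activates Cdkn1a, Mdm2, Ccng1 and Bax, among many genes. Both Ink4/Arf and p53 are known as brakes on the self-renewal of neural progenitors and on reprogramming to iPSCs.

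The 250 bases before the start sites of these genes are shown because p53 and Srf act through sites in DNA. RefSeq (GRCm38.p6, the build of the mm10 genome to which the reads were mapped) gave 13 such windows for the 10 genes. The decamer motif of p53, a pair of which makes up a full p53 site, was searched on both strands and was found in 6 of the 13 windows, those of Cdkn1a (the upstream of its start sites), Cdkn2d, Trp53, Mdm2, Ccng1 and Bax, whereas 7.13% of 32851 windows in the genome hold it. The windows of the 4 p53 targets lie at chr17:29090729-29090978 (plus strand), chr10:117710759-117711008, chr11:40755287-40755536 and chr7:45466899-45467148 (minus strand), and capitals mark the decamers.
Cdkn1a: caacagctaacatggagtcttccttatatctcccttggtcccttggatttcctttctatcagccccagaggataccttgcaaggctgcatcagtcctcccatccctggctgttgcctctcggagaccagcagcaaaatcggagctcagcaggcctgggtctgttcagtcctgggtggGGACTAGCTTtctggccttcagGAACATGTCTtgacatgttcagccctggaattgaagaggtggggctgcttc
Mdm2: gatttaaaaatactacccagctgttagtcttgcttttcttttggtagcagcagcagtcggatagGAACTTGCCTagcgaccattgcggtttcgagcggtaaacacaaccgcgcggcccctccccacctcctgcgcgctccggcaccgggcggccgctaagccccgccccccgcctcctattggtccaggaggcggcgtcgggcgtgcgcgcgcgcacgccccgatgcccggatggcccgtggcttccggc
Ccng1: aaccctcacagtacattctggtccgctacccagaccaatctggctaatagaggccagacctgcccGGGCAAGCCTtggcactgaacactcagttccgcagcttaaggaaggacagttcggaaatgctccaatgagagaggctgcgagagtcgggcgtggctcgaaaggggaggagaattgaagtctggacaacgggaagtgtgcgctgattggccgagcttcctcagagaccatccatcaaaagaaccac
Bax: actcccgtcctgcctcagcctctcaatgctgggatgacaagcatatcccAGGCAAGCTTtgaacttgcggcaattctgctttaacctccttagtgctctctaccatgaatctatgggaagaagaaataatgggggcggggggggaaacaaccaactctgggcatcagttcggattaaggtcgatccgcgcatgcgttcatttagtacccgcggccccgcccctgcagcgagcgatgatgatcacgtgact
In Cdkn1a the decamers begin 73 and 51 bases before the upstream start site, and the window of its other start site holds none. In Mdm2 the decamer begins 186, in Ccng1 185 and in Bax 201 bases before the start site. A match says only that these letters are present, and binding of p53 was not measured. The CArG box, the motif that Srf binds, was found on neither strand of any of the 13 windows, against 1.47% of all windows, which says only that these letters are absent here.

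The windows of Cdkn2a and Cdkn2b are shown because the 2 genes had the highest levels of the Cdk inhibitors. Cdkn2a has 2 start sites 12427 bases apart, and the deposited value of the gene does not separate the transcripts that begin at them. Capitals mark the letters GGGCGG, the GC box bound by Sp1, searched on both strands and present in 7 of the 13 windows and in 32.7% of all windows. In the window of Cdkn2d a GC box overlaps the p53 decamer. The windows lie at chr4:89294620-89294869, chr4:89282193-89282442 and chr4:89311033-89311282 (minus strand).
Cdkn2a, upstream start site: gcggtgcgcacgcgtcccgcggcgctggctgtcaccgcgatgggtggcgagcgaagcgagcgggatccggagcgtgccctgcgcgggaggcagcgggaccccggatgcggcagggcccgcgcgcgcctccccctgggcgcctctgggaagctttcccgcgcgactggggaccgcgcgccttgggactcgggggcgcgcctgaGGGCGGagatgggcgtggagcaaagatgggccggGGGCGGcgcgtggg
Cdkn2a, downstream start site: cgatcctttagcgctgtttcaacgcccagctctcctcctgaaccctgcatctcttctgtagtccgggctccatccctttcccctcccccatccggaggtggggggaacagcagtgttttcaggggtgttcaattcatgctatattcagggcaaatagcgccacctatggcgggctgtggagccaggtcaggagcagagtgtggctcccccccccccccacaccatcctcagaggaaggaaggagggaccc
Cdkn2b: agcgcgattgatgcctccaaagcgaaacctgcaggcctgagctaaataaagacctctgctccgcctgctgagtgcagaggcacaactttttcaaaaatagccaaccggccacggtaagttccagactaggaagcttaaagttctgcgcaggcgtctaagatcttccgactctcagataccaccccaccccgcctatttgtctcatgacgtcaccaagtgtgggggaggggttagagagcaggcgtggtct
The upstream window of Cdkn2a holds 2 GC boxes. The other two hold none.

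Cdkn2a was by far the most highly expressed of the 10 genes. Its FPKM was 754 in control NPCs at 0.5 kPa, 666 in control NPCs at 12 kPa, 1285 in shSrf NPCs at 0.5 kPa and 1338 in shSrf NPCs at 12 kPa. It ranked 103rd and 130th of the 21862 genes in the control libraries and 55th in both shSrf libraries. Its mean FPKM over the libraries, 1011, was 5.96 times that of Bax (170), the pro-apoptotic pore-forming protein that followed. Cdkn2b (127) and Trp53 (113) came next, with ranges over the libraries that overlapped each other, from 95.1 to 151 and from 102 to 125. The range of Cdkn2b did not overlap that of Bax (152 to 194). A gap of 3.53 times separated Trp53 from Mdm2 (32.0), below which Ccng1 (28.9), Cdkn2c (26.6) and Cdkn1b (26.4) followed with overlapping ranges. Cdkn2d (20.1) lay below the range of Cdkn1b, and Cdkn1a was lowest at 13.9, with ranges of these 2 that overlapped. Values of Cdkn2a and Cdkn2b, which are paralogues and lie side by side on chromosome 4, rest on reads of high mapping quality, and reads that could have been shared between them were not measured.

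**Figure D1:**
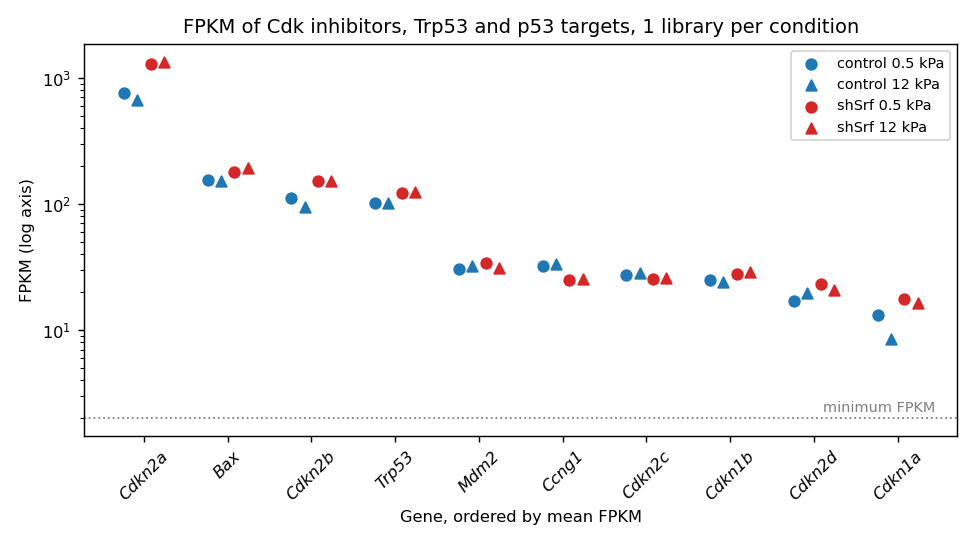
FPKM (log axis) of each gene, ordered by mean FPKM, with 1 point for each of the 4 libraries (blue for control, red for shSrf, circles for 0.5 kPa and triangles for 12 kPa). Cdkn2a lies between 666 and 1338, above the other 9 genes in every library, and both red points lie above both blue points for 7 genes, as for 39.8% of all genes.

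In shSrf NPCs, most of these genes were higher than in control NPCs at the same stiffness, with Cdkn2a, Cdkn1a and Cdkn2b furthest apart at 12 kPa. At 0.5 kPa, 8 of the 10 genes were higher by more than 1.1-fold, the threshold of the study, where 37.4% of all 10489 genes were, and 1 was lower (35.7%). Either way this was 9 of 10, against 73.1% of all genes. At 12 kPa, 6 were higher (37.6% of all genes) and 2 were lower (35.9%), 8 of 10 either way against 73.6%. Past 1.5-fold was Cdkn2a at 0.5 kPa, higher (1 of 10, against 9.19% higher and 18.5% either way), and Cdkn1a, Cdkn2a and Cdkn2b at 12 kPa, higher (3 of 10, against 10.2% higher and 19.1% either way). The median log2 ratio of shSrf to control was 0.24 at 0.5 kPa and 0.27 at 12 kPa for the 10 genes, and 0.0106 and 0.00981 for all genes. The 2 ratios share no library. At both stiffnesses Cdkn1a, Cdkn1b, Cdkn2a, Cdkn2b, Trp53 and Bax were higher (6 of 10, against 30.3% of all genes), and Ccng1 was lower (1 of 10, against 28.8%). Centred for GC content as described further on, 5 were higher and 0 lower at both, with the calls of Bax and Ccng1 lost. In bulk RNA, a change in the share of cells that express a gene and a change in the level per cell cannot be told apart.

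Among the Ink4 genes, Cdkn2a, at the Ink4a/Arf locus (chromosome 4, 89274473 to 89294619 on GRCm38), was higher in both shSrf libraries than in both control libraries. The log2 ratio was 0.77 (SE 0.014) at 0.5 kPa and 1.01 (SE 0.015) at 12 kPa, or 1.70-fold and 2.01-fold, and it was the only one of the 10 genes past 1.5-fold at both stiffnesses (6.63% of all genes were higher and 6.17% lower by that much at both). Cdkn2b (chromosome 4, 89306289 to 89311032), whose product p15 is known as an effector of TGF-beta arrest, stood at 112 and 95.1 FPKM in control NPCs at 0.5 and 12 kPa and at 151 in shSrf NPCs at both. Both shSrf libraries were again above both control libraries, with a log2 ratio of 0.43 (SE 0.028) and 0.66 (SE 0.031). Cdkn2c (chromosome 4, 109660876 to 109666756) stood at 27.1 and 28.4 FPKM in control and 25.3 and 25.8 in shSrf NPCs, a log2 ratio of -0.10 (SE 0.053) and -0.14 (SE 0.052). Cdkn2d (chromosome 9, 21288459 to 21291421) stood at 16.9 and 19.7 FPKM in control and 23.0 and 20.9 in shSrf NPCs, with both shSrf libraries above both control libraries and a log2 ratio of 0.44 (SE 0.076) at 0.5 kPa and 0.09 (SE 0.075) at 12 kPa. For Cdkn2c the ratio at 12 kPa was just past 1.1-fold, and a pseudocount of 1 brought it to -0.133, within the threshold.

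Both Cip/Kip genes were higher in shSrf NPCs at both stiffnesses. Cdkn1a (chromosome 17, 29090979 to 29100722) stood at 13.1 FPKM in control NPCs at 0.5 kPa, 8.44 in control NPCs at 12 kPa, 17.7 in shSrf NPCs at 0.5 kPa and 16.4 in shSrf NPCs at 12 kPa. The control library at 12 kPa was the low one, and the log2 ratio of shSrf to control was accordingly 0.44 (SE 0.11) at 0.5 kPa and 0.96 (SE 0.14) at 12 kPa. Cdkn1a rests on the fewest reads, an estimated 134 to 671 per library. Cdkn1b (chromosome 6, 134920401 to 134925525) stood at 24.9 and 24.2 FPKM in control and 27.96 and 28.6 in shSrf NPCs. Its log2 ratio was 0.17 (SE 0.037) and 0.24 (SE 0.038), a difference of 12.2% and 18.2%.

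p53 and its targets did not move as a block. Trp53 (chromosome 11, 69580348 to 69591873) stood at 102 FPKM in both control libraries and at 122 and 125 in the shSrf libraries, a log2 ratio of 0.26 (SE 0.026) and 0.30 (SE 0.027). Bax (chromosome 7, 45461695 to 45466903) stood at 153 and 152 FPKM in control and 179 and 194 in shSrf NPCs, a log2 ratio of 0.22 (SE 0.031) and 0.35 (SE 0.031). Ccng1 (chromosome 11, 40748552 to 40755309), which encodes cyclin G1, went the other way. Its FPKM was 32.3 and 33.1 in control and 25.1 and 25.4 in shSrf NPCs, and its log2 ratio was -0.36 (SE 0.035) and -0.38 (SE 0.034). Mdm2 (chromosome 10, 117688875 to 117710758) stood at 30.4 and 32.1 FPKM in control and 34.1 and 31.2 in shSrf NPCs, so that the groups overlapped. For Ccng1 and Cdkn2c both shSrf libraries were below both control libraries, as for 37.6% of all genes.

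**Figure D2:**
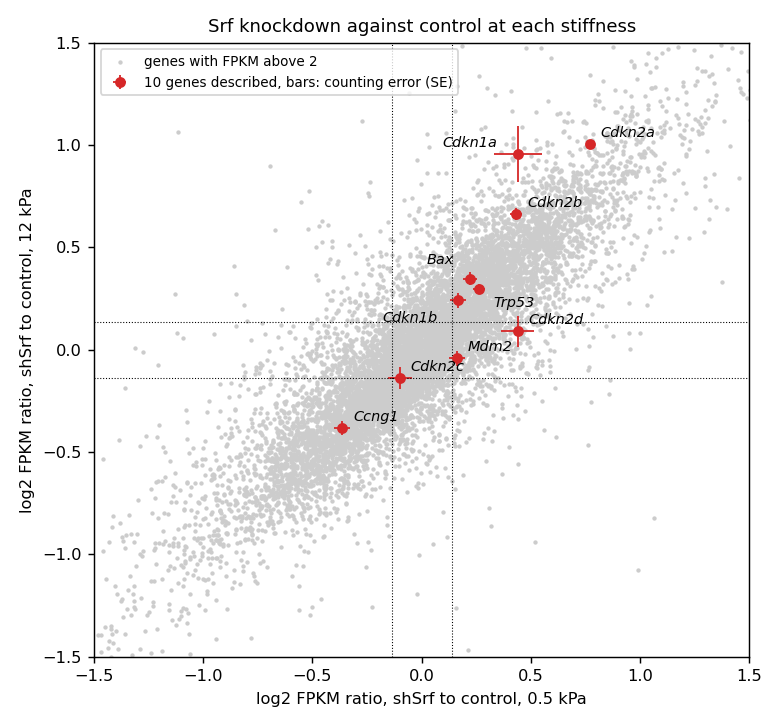
Log2 FPKM ratio of shSrf to control at 0.5 kPa (x axis) and at 12 kPa (y axis). Red points are the 10 genes, with bars for counting error, grey points are the 10489 genes compared (209 lie outside the axes), and dotted lines mark 1.1-fold. Cdkn2a and Cdkn1a stand highest at 12 kPa, at 1.01 and 0.96, and Ccng1 lies at the lower left, at -0.36 and -0.38.

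These ratios varied with the GC content of transcripts across all genes. The median log2 ratio of shSrf to control at 0.5 kPa was -0.19 in the lowest and 0.22 in the highest of 10 equal bins of genes by GC, and at 12 kPa the same bins had medians of -0.29 and 0.35. Several of the 10 genes sit near the ends of that range, with Ccng1 at 40.8% GC and Bax at 60.8%, above 96.7% of genes. After centring within 50 bins of GC content the ratios of Bax were 0.02 at 0.5 kPa and -0.03 at 12 kPa, and those of Ccng1 were -0.16 and -0.099, so that Bax was within 1.1-fold at both stiffnesses and Ccng1 at 12 kPa. Cdkn2a (58.0% GC) had ratios of 0.63 and 0.76, Cdkn1a (57.4%) 0.24 and 0.67, Cdkn2b (55.8%) 0.33 and 0.47, Cdkn1b (44.4%) 0.24 and 0.40, and Trp53 (54.1%) 0.17 and 0.18. These 5 genes stayed higher by more than 1.1-fold at both stiffnesses, but Cdkn2b was no longer past 1.5-fold at 12 kPa, nor Cdkn2a past 2-fold. At 12 kPa the ratio of Cdkn2d turned from 0.09 to -0.11 and that of Mdm2 from -0.04 to 0.09, all within 1.1-fold. Cdkn2c had -0.093 and -0.18.

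**Figure D3:**
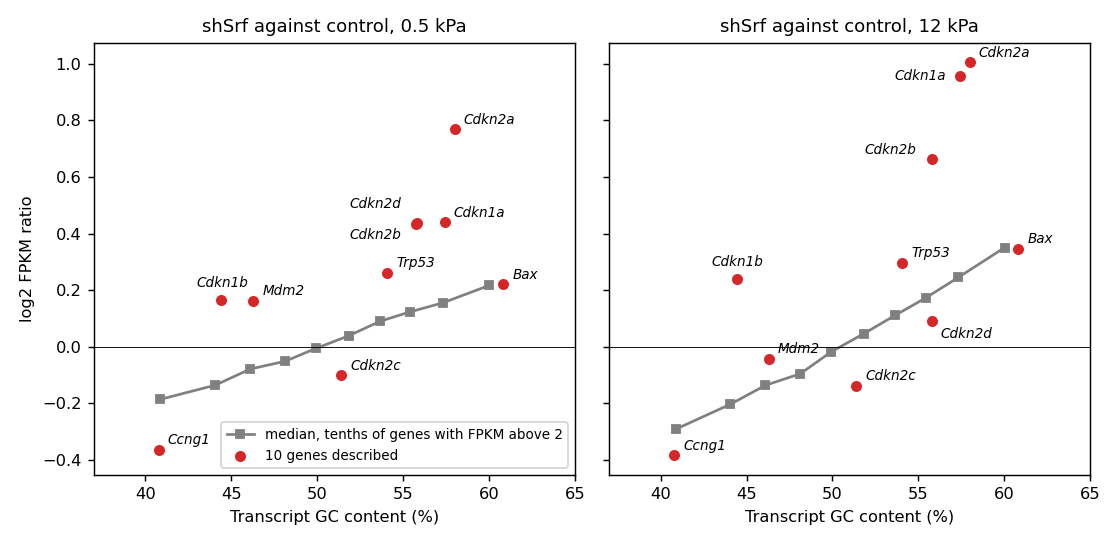
Log2 FPKM ratio of shSrf to control (y axis) against the GC content of transcripts (x axis, %) at 0.5 kPa (left) and 12 kPa (right). Grey squares are medians of 10 equal bins of the genes compared, and red points are the 10 genes. Bax lies close to the grey line, whereas Cdkn2a, Cdkn1a and Cdkn2b lie above it on both sides.

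The comparison of 12 with 0.5 kPa addresses the response of NPCs to stiffness. In control NPCs, Cdkn1a, Cdkn2a and Cdkn2b were lower on the stiff matrix by more than 1.1-fold (3 of 10, against 16.9% of all genes), and Cdkn2d was higher (1 of 10, against 17.9%), 4 of 10 either way against 34.7%. Cdkn1a differed most, from an FPKM of 13.1 to 8.44, a log2 ratio of -0.63 (SE 0.15), which was at the 0.744th percentile of all genes. It was the 1 member past 1.5-fold, where 0.963% of all genes were lower by as much and 1.82% were past it either way. Cdkn2a had a log2 ratio of -0.18 (SE 0.018), Cdkn2b of -0.24 (SE 0.036) and Cdkn2d of 0.21 (SE 0.090). Trp53 and Bax were close to level, with log2 ratios of -0.00098 (SE 0.031) and -0.0097 (SE 0.037). Mdm2 had 0.08 (SE 0.042), Cdkn2c 0.06 (SE 0.060), Ccng1 0.04 (SE 0.038) and Cdkn1b -0.04 (SE 0.044). The median over the 10 genes was -0.0053, and 0.0030 over all genes.

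In shSrf NPCs, 0 of the 10 genes were past 1.1-fold between the stiffnesses in either direction, where 17.6% of all genes were higher and 13.0% lower at 12 kPa, 30.6% either way. Cdkn2d (-0.13, SE 0.058), Mdm2 (-0.13, SE 0.029), Bax (0.12, SE 0.024) and Cdkn1a (-0.11, SE 0.084) had the widest log2 ratios, and the other 6 lay between -0.0054 (Cdkn2b) and 0.06 (Cdkn2a). For Cdkn2d the ratio was just inside the threshold and moved past it, to -0.14, when each ratio was centred on its median. With centring within GC bins, Cdkn2d (-0.20) and Cdkn1a (-0.16) were both lower at 12 kPa by more than 1.1-fold. Subtracting the log2 ratio of control from that of shSrf NPCs gave 0.52 (SE 0.18) for Cdkn1a, 0.24 (SE 0.020) for Cdkn2a, 0.23 (SE 0.042) for Cdkn2b and -0.35 (SE 0.11) for Cdkn2d. With 1 library per condition these differences were not tested, and they are given without centring for GC content. The control library at 12 kPa enters both the stiffness ratio of control NPCs and the knockdown ratio at 12 kPa, so the low Cdkn1a value in it appears in both.

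**Figure D4:**
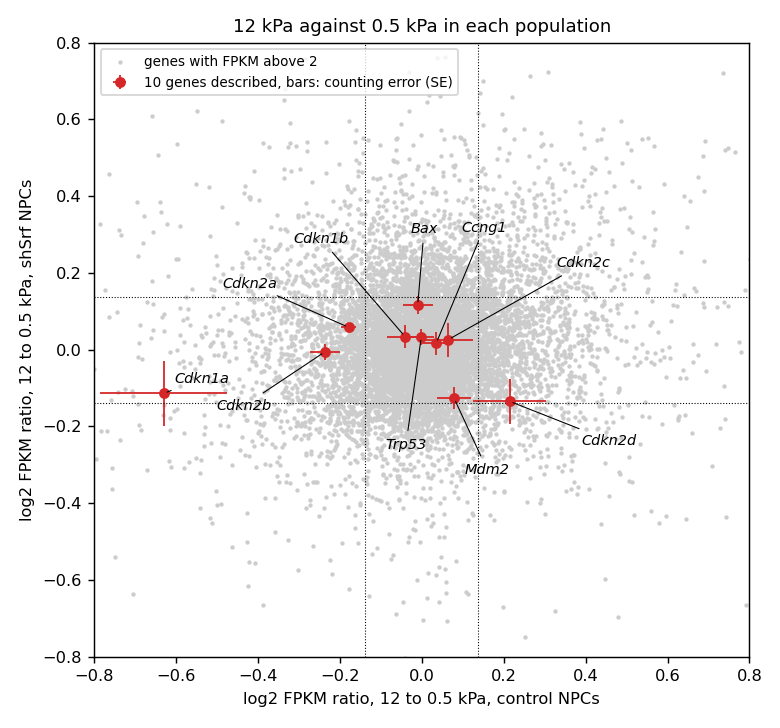
Log2 FPKM ratio of 12 to 0.5 kPa in control NPCs (x axis) and in shSrf NPCs (y axis), with symbols as in the plot of knockdown ratios and 82 genes outside the axes. Cdkn1a stands at the left, at -0.63 in control and -0.11 in shSrf NPCs, and all 10 genes lie between the horizontal dotted lines at 1.1-fold.

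A wider list of 34 p53 targets was read beside the members, of which 30 were above an FPKM of 2 in all libraries. In shSrf NPCs 9 were higher and 13 lower than in control NPCs at 0.5 kPa, and 8 were higher and 12 lower at 12 kPa, beside 37.4% higher and 35.7% lower, and 37.6% and 35.9%, among all genes. The balance at 12 kPa depended on the processing, with 13 higher and 11 lower after centring for GC content and 12 each way when genes below the minimum were kept by adding a pseudocount of 1. Past 1.1-fold at both stiffnesses, 6 of 30 were higher (against 30.3% of all genes) and 10 of 30 were lower (against 28.8%). The median log2 ratio was -0.05 at 0.5 kPa and -0.03 at 12 kPa. Higher by more than 1.5-fold at both were Btg2, an antiproliferative transcriptional cofactor (FPKM of 3.57 and 3.49 in control, 13.6 and 13.2 in shSrf NPCs), Bbc3, which encodes the pro-apoptotic protein Puma (10.8 and 10.9, 20.5 and 21.4), and Ak1, an adenylate kinase (25.9 and 19.8, 40.8 and 34.5). Dram1, a lysosomal protein linked to autophagy, was lower by as much, with 5.56 and 6.10 in control and 2.61 and 3.05 in shSrf NPCs. Between the stiffnesses, 6 of the 30 were higher and 9 lower at 12 kPa in control NPCs, and 5 were higher and 6 lower in shSrf NPCs, where 17.9% and 16.9% of all genes were in control and 17.6% and 13.0% in shSrf NPCs.

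**Figure D5:**
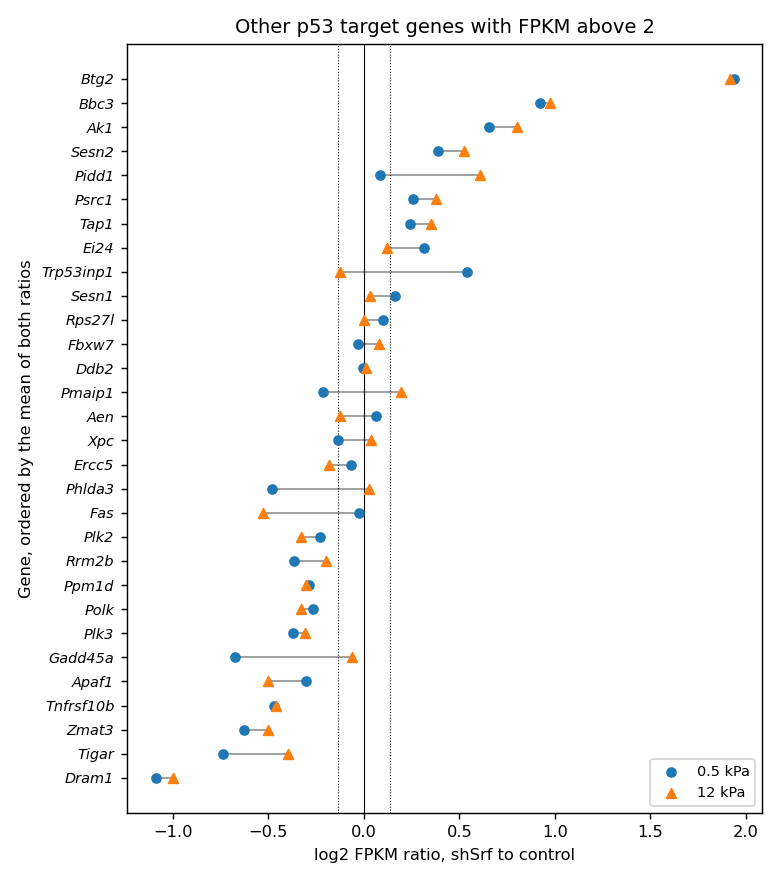
Log2 FPKM ratio of shSrf to control (x axis) for the 30 other p53 targets above the minimum, at 0.5 kPa (blue circles) and 12 kPa (orange triangles), with dotted lines at 1.1-fold. Btg2 stands at the top, at 1.94 and 1.91, and Dram1 at the bottom, at -1.09 and -0.9996, with genes on both sides of 0 in between.

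Of 20 symbols for genes that regulate or resemble p53, 17 were above the minimum, and 6 were higher and 4 lower in shSrf NPCs at both stiffnesses (35.3% and 23.5% of the list, against 30.3% and 28.8% of all genes). Ppp1r13l, which encodes the p53 inhibitor iASPP, had an FPKM of 3.37 and 3.26 in control and 9.20 and 5.84 in shSrf NPCs. Atr, a kinase of the DNA damage response upstream of p53, had 5.35 and 6.39 in control and 3.43 and 3.27 in shSrf NPCs. Centred within GC bins, the log2 ratio of Atr was -0.45 at 0.5 kPa, within 1.5-fold, and -0.65 at 12 kPa. The median log2 ratio of the 17 genes was 0.06 at 0.5 kPa and 0.13 at 12 kPa.

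The cyclins and Cdks on which the inhibitors act were all above the minimum (12 of 12). At both stiffnesses 5 were higher in shSrf NPCs (Ccnd3, Ccnb2, Cdk1, Cdk4 and Cdk6) and 2 were lower (Ccne1 and Ccnb1), 41.7% and 16.7% of the list against 30.3% and 28.8% of all genes. Ccnd3, the D-type cyclin of the list past 1.5-fold at both, had an FPKM of 150 and 166 in control and 241 and 254 in shSrf NPCs. Its transcripts have 59.2% GC, and its ratios are given without centring for GC content. Cdk4, the kinase bound by the Ink4 proteins and named here after its values were seen, had 745 and 739 in control and 1121 and 1071 in shSrf NPCs, a log2 ratio of 0.59 and 0.54. Of 9 genes of the Rb family and E2f factors above the minimum, 2 were higher and 3 lower at both stiffnesses (22.2% and 33.3% of the list, against 30.3% and 28.8% of all genes), and 0 were past 1.5-fold at both in either direction. Rb1 itself was not among the gene symbols that each library listed once, so no value is given for it.

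Among further Cdk inhibitors, Cdkn1c, which encodes p57, was listed at 0 in both libraries at 0.5 kPa and at 0.0245 and 0.00949 at 12 kPa, below the 0.0691 and 0.0267 that 3 reads on a transcript of 2000 bases would give in those libraries. Cdkn3, a phosphatase acting on Cdk2, was between 18.7 and 20.3 in all libraries, and Cdk2ap1 was 40.2 and 48.7 in control and 56.0 and 57.8 in shSrf NPCs. Of 16 regulators of Cdk inhibitor genes or proteins, 5 were higher and 3 lower at both stiffnesses (31.3% and 18.8% of the list, against 30.3% and 28.8% of all genes). Skp2, the F-box protein that marks p27 for degradation, had an FPKM of 23.6 and 27.4 in control and 15.3 and 14.8 in shSrf NPCs, and it was the gene of this list past 1.5-fold at both. Centred within GC bins, its log2 ratio of shSrf to control was -0.54 at 0.5 kPa, within 1.5-fold, and -0.74 at 12 kPa.

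Bax belongs to the Bcl2 family, of which 12 of 14 other listed genes were above the minimum. In shSrf NPCs 4 were higher and 4 lower at both stiffnesses (33.3% of the list each, against 30.3% and 28.8% of all genes). Bmf, a BH3-only activator of cell death, had an FPKM of 9.60 and 9.43 in control and 32.7 and 35.9 in shSrf NPCs, which put it past 1.5-fold together with Bbc3, a gene shared with the list of p53 targets. Bok, a relative of Bax, had 48.2 and 44.9 in control and 28.9 and 27.9 in shSrf NPCs.

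The genes nearest to a member in pattern were sought for Cdkn1a, Cdkn2a and Cdkn2b, which were past 1.5-fold in at least 1 ratio. Likeness was the Euclidean distance between log2 FPKM values centred on their mean over the 4 libraries, so it ignores the level. Smox (distance 0.0546), Mmp19 (0.0745) and Tnfrsf22 (0.1004) lay nearest to Cdkn1a. Smox had an FPKM of 8.58, 5.26, 11.5 and 10.5 in control at 0.5 and 12 kPa and shSrf at 0.5 and 12 kPa, the same order of libraries as Cdkn1a. For Cdkn2a they were Sap30 (0.0480), Adgrg1 (0.0506) and Wdr34 (0.0570), and for Cdkn2b Fam20c (0.0131), Nfil3 (0.0176) and Glis2 (0.0300). Over 4 libraries many genes can come this close, and the distances are a description.

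Neighbours of the Ink4a/Arf locus were read for comparison after its values were seen. Mtap, the protein-coding gene next to Cdkn2a on its other side (chromosome 4, 89137370 to 89181090), had an FPKM of 91.5 in both control libraries and of 71.6 and 68.2 in shSrf NPCs, so it was lower where Cdkn2a and Cdkn2b were higher. Dmrta1, the next gene beyond Cdkn2b, was between 1.04 and 2.23 in all libraries.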

How the data were processed

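RNA of 4 groups (control and shSrf NPCs at 0.5 and 12 kPa) was sequenced, with 1 library for each. The authors trimmed single-end reads (cutadapt 1.9.1), mapped them to mm10 (TopHat2 2.1.0, Bowtie2 2.2.8, GENCODE annotation), kept reads of high mapping quality and computed the deposited FPKM values with Cufflinks 2.2.1. FPKM was used as deposited. Repeated symbols (63) were dropped. Genes exceeding an FPKM of 2 in every library were compared by log2 ratio without a pseudocount, and 1.1-fold was the threshold, both as in the study's methods. Whether strand was used in counting is not given in the sources used here, so antisense reads may be included.

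Depth was estimated from the value of 1 read in genes with an FPKM under 0.1, and reads per gene from GENCODE M1 transcript lengths (98.4% of genes matched by symbol). Counting errors are Poisson errors, cover no other variation and are approximate for genes with several transcripts. The calculations were run on simulated Poisson counts made with the transcript lengths that the estimates use. That checks the arithmetic and not the assumptions behind it. The values of 1 neural progenitor marker are not reported here. The 10 genes and all lists were chosen with earlier results of these data known. Of the lists, genes past 1.5-fold the same way in shSrf NPCs at both stiffnesses were named (up to 3 each way), besides all 10 members and, for each member past 1.5-fold, the 3 nearest genes. The 1.5-fold calls were made on ratios not centred for GC content, and centred ratios of list genes are given only where stated. Alternatives were a minimum of 1 or 5, no minimum, a pseudocount of 1, centring on the median, scaling to the 75th percentile, centring within 50 GC bins, thresholds of 1.2, 1.5 and 2-fold, and, chosen after seeing the data, 2 counting errors. Coordinates and promoters are RefSeq GRCm38.p6. Python 3.11.15, numpy 2.4.6, pandas 2.3.3 and matplotlib 3.10.9 were used.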

Additional observations from a re-analysis of the deposited data

Results flagged for a closer look

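Named genes are given here where a ratio had opposite signs in the paired conditions and was past 1.1-fold in at least 1 of them. The difference was not tested for any, since each condition had 1 library. Between 12 and 0.5 kPa, the log2 ratio of shSrf NPCs minus that of control NPCs was 0.24 for Cdkn2a (-0.18 in control, 0.06 in shSrf NPCs), -0.35 for Cdkn2d (0.21 and -0.13), -0.32 for Atr (0.26 and -0.07), -0.27 for Skp2 (0.22 and -0.05), 0.29 for Adgrg1 (-0.25 and 0.04) and 0.20 for Wdr34 (-0.16 and 0.05). Adgrg1 and Wdr34 were named for their likeness to Cdkn2a. The log2 ratio of shSrf to control NPCs at 12 kPa minus that at 0.5 kPa was -0.20 for Mdm2 (0.16 at 0.5 kPa, -0.04 at 12 kPa). Centred within GC bins, the signs were opposite for Cdkn2d (0.22 and -0.20) and Atr (0.22 and -0.02) but not for Cdkn2a (-0.14 and -0.02) or Mdm2 (0.24 and 0.09), nor for Skp2 (0.22 and 0.0038), Adgrg1 (-0.23 and -0.0076) or Wdr34 (-0.11 and -0.03).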

How the results depend on the processing

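No paired analysis was possible because no condition was sequenced more than once. Of 280 member ratios recomputed under the minimum, pseudocount, scaling and centring alternatives, 275 kept their sign and 9 crossed 1.1-fold. A minimum of 1 or 5 leaves a member's ratio as it was, and a pseudocount cannot change its sign, so the total overstates stability. Every change of sign came with centring within GC bins, in ratios of Bax, Cdkn2a, Cdkn2d and Mdm2. The ratio of Bax at 12 kPa, 0.35, was -0.0303 after centring within GC bins. With these bins 7 members were higher and 1 lower in shSrf NPCs at 0.5 kPa, 5 and 1 at 12 kPa, and 5 and 0 at both, and the calls of Bax at both stiffnesses and of Ccng1 at 12 kPa were lost. The numbers of members past 1.1-fold between stiffnesses were 4 in control and 0 in shSrf NPCs. In control NPCs 1 was past 1.2-fold, 1 past 1.5-fold and 0 past 2-fold. In shSrf NPCs 1 was past 1.1-fold with centring on the median or scaling to the 75th percentile (Cdkn2d), and 2 with GC bins (Cdkn2d and Cdkn1a). Between shSrf and control NPCs at 0.5 kPa 9 were past 1.1-fold, 5 past 1.2-fold, 1 past 1.5-fold and 0 past 2-fold. At 12 kPa 8 were past 1.1-fold, 3 past 1.5-fold and 1 past 2-fold. At both stiffnesses 7 were past 1.1-fold the same way, 4 past 1.2-fold, 1 past 1.5-fold and 0 past 2-fold. Of the other p53 targets, 22 were past 1.1-fold at 0.5 kPa and 20 at 12 kPa. With a minimum of 5 these were 14 and 12, with 1.5-fold 7 and 5, and with 2-fold 2 and 1. With a minimum of 5 fewer genes were tested. Requiring 2 counting errors left every member count as it was, and left 22 of the other p53 targets at 0.5 kPa and 18 at 12 kPa. Depth limits Cdkn1a most.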
